A study of Mus musculus with 18 samples.

Results

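Adherent neural stem cell (NSC) lines grown from the spinal cord of DNGR-1 lineage-traced mice were compared with an NSC line grown from the hippocampus. RNA sequencing libraries of NSCs made up 9 of the 18 libraries of the series, with 3 replicates for each of 3 lines. The traced tdTomato line had the genotype DNGR-1 +/- Tom+/-, with Cre in the Clec9a gene, which encodes DNGR-1, and a tdTomato reporter behind a stop cassette at the Rosa locus. The traced EYFP line had the genotype DNGR-1 +/- EYFP+/- and carried an EYFP reporter in its place. The hippocampal line was labelled DNGR-1+/+, and according to the methods it came from mice with Cre driven by Glast, a floxed Huwe1 allele and an EYFP reporter. All NSCs were recovered after 4 days in a medium with 20 ng/ml EGF and 20 ng/ml bFGF. The methods describe sorting of tdTomato+ cells from neurospheres before the adherent culture, and they give an age of 6 to 14 weeks for mice of the study unless stated otherwise. Each line was a single culture line, and its replicates were taken at passages 10, 11 and 12 per the methods, so they measured the spread between passages of that line, and hippocampal origin cannot be told apart from the other properties of the 1 hippocampal line.

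Of the 27997 genes in the table, 14546 were tested, those that reached 3.32 on the log2 scale (a linear value of 10) in 3 or more of the 9 NSC libraries. A gene was taken to differ the same way from both traced lines when the tdTomato and the EYFP line each differed from the hippocampal line in the same direction by limma, with p adjusted by Benjamini and Hochberg's method across the tested genes and a limit of 0.05. This held for 2599 genes. Both comparisons share the 3 hippocampal libraries, so a gene at which these libraries stood apart counted in both. Of the 2599, 2487 had no pseudogene biotype, which is 17.9% of the 13900 such genes tested, and 112 of 646 pseudogenes met the rule and were kept apart. The gene nearest to the threshold on the inside was Camk1d, at 0.50 in the tdTomato and 0.26 in the EYFP line on the log2 scale, and the nearest outside was Ephx1, at 0.28 and 0.13.

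Cells of the neural tube carry a record of their position from head to tail. The Hox genes, arranged in 4 clusters, encode homeodomain transcription factors that are used from the hindbrain to the tail end of the spinal cord, and genes such as Otx1 mark the forebrain. Homeodomain proteins bind short sequences with the core TAAT. Neural stem cells of both regions can be grown in EGF and FGF, and both have features of radial glia and astrocytes.

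The promoters of 4 Hox genes that led the list of genes higher in both traced lines are shown, since these genes moved together across 3 of the clusters. Each window is the 250 bases before the RefSeq start site on GRCm38.p6, read 5′ to 3′ on the strand of the gene, with TAAT or its reverse complement ATTA in capitals. The Hoxa10 window was chr6:52240855-52241104 on the minus strand, the Hoxb8 window chr11:96281655-96281904, the Hoxb4 window chr11:96318017-96318266 and the Hoxd8 window chr2:74704365-74704614, the last 3 on the plus strand.
Hoxa10: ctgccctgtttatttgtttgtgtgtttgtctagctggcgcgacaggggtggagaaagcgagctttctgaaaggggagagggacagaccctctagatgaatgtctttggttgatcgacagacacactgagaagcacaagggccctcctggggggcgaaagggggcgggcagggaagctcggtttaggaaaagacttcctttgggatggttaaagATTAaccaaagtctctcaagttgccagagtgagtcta
Hoxb8: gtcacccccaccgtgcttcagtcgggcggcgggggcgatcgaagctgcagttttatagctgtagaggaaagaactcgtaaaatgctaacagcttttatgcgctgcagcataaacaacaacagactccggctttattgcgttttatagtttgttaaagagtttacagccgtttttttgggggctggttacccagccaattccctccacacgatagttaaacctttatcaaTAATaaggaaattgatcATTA
Hoxb4: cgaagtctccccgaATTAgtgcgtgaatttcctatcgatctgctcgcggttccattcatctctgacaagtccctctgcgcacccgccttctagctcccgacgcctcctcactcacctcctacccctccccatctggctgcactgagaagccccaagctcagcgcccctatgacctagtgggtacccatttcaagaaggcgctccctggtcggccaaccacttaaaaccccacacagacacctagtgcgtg
Hoxd8: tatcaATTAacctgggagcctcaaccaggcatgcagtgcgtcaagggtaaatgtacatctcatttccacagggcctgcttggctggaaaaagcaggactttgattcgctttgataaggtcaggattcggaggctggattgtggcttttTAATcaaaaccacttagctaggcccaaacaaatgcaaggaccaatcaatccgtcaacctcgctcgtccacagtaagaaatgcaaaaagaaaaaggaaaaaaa
Of the 24 Hox genes higher in both traced lines, 8 had a RefSeq promoter whose start lay within 50 bases of the start in GENCODE, and all 8 of these windows held TAAT on either strand. Of 9964 promoters of all genes chosen in the same way, 43.9% held it. The letters are a description of these windows and not of binding.

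Libraries of 1 line were close to each other. Over all genes tested, replicates of the same line differed in absolute terms by a median of 0.0714 to 0.114 on the log2 scale. Nes, which encodes the NSC marker nestin, was at 14.27 ± 0.12, 13.90 ± 0.14 and 13.86 ± 0.12 (SD, n = 3) in the tdTomato, EYFP and hippocampal lines, higher in the tdTomato than in the hippocampal line by 0.41 (adjusted p = 0.00274, limma). Sox2, a transcription factor of NSCs, was at 11.29, 11.87 and 12.05 on average in the same order, lower by 0.76 in the tdTomato and 0.18 in the EYFP line. Both markers lay far above the filter on low values in all 3 lines. Xist was at 13.09 to 13.22 in the tdTomato libraries and at 5.04 to 5.47 in the other 6, and the Y-linked genes Ddx3y, Eif2s3y, Kdm5d and Uty were at 3.93 to 5.03 in the tdTomato line and at 8.45 to 10.31 in the EYFP and hippocampal lines. The tdTomato line thus had the pattern of female cells and the others that of male cells, and a gene had to differ from the hippocampal line in both to be kept. Huwe1, the floxed gene of the hippocampal line, was at 13.15 to 13.38 in all 9 libraries, and whether the allele was recombined cannot be read from these values. Of the markers of microglia, dendritic cells and endothelium that were in the table, 3 of 10, 3 of 11 and 4 of 10 passed the filter on low values, and 0 differed the same way from both lines. By the 6 against 3 test of limma their count was also 0, and 1 marker of each list had an unadjusted p under 0.05.

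Across all genes, the 6 traced libraries differed from the 3 hippocampal libraries in 2823 genes (19.4% of 14546), of which 1541 were higher and 1282 lower in traced NSCs. Leaving out 1 hippocampal library lowered the count to 1718, 1718 and 1656 (replicate 1, 2 and 3), and it was 5208 when the mean of both traced lines was tested in the model of 3 lines. The tdTomato line differed from the hippocampal line in 6110 genes (42.0%) and the EYFP line in 4239 (29.1%). These comparisons share the hippocampal libraries. The traced lines also differed from each other, in 5207 genes (35.8%). Of the genes that differed from the hippocampal line in both comparisons, 200 did so in opposite directions.

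Without pseudogenes, 1391 genes (10.0%) were higher and 1096 (7.88%) lower in both traced lines. The excess of higher genes turned with the scaling. With pseudogenes included, 1425 were higher and 1174 lower as deposited, 1188 and 1415 after median centring and 1281 and 1344 after quantile normalization. Most of the differences were small, with a median size of 0.36 for the smaller of the line differences, and 1556 were under 0.5. The transform of the deposited values is not given in the sources used here, and the value that stands for no reads is not known, so a difference on the log2 scale cannot be read as a fold of expression for any gene. At least 1 in both lines was reached by 223 genes that were higher (1.60%) and 159 that were lower (1.14%). Of these 382 genes, 347 were protein-coding, and in 380 the traced and hippocampal libraries did not overlap. The 382 were chosen by tests and size on these same libraries, so the lack of overlap is no further result. Its share over all genes was not counted. At least 4 in both lines was reached by 13 higher and 7 lower genes. Of the 1391 higher genes, 87 had a hippocampal mean under the filter on low values and were tested through the traced libraries alone, and in 12 of them through 1 traced line. Of the 1096 lower genes, 53 had both traced means under it. A gene that passed the filter only where it was high could hardly be called in the other direction.

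Most of the leading higher genes were Hox genes. Of the 12 leading genes higher in both traced lines, 8 were Hox genes, and Nkx6-1, a homeodomain factor of the ventral neural tube, was among the other 4. Of the 12 leading genes lower in both traced lines, Otx1 is a transcription factor of the forebrain. The leading genes were chosen for the size of these same differences, which were at least 1.97 in both lines, for passing the tests and for groups that do not overlap, so their p-values describe the choice and are no further support.

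Tagln2, an actin-binding protein of the transgelin family, had the largest difference among the genes higher in both traced lines. It was at 10.26, 10.25 and 10.35 in the tdTomato, at 9.54, 9.41 and 9.91 in the EYFP and at 4.08, 3.81 and 3.93 in the hippocampal libraries. All 6 traced libraries lay far above the hippocampal libraries, and the tdTomato libraries lay above the EYFP libraries. The difference was 6.01 (standard error 0.21, adjusted p = 4.26e-08, limma), with 6.35 in the tdTomato and 5.68 in the EYFP line. AI506816, a transcript without a protein product in the annotation, was at 13.23, 13.42 and 13.46 in the tdTomato, 12.98, 13.05 and 13.21 in the EYFP and 8.35, 8.37 and 8.28 in the hippocampal libraries. Its difference was 4.90 (standard error 0.10, adjusted p = 9.68e-10, limma). Fndc3c1, an X-linked gene with fibronectin type III domains, was at 7.58 to 8.32 in the traced and at 3.25 to 3.63 in the hippocampal libraries. Nkx6-1, on chromosome 5 from 101658139 to 101664996 in GENCODE M21 on GRCm38, was at 9.09, 9.05 and 8.94 in the tdTomato, 8.76, 8.79 and 8.71 in the EYFP and 4.25, 4.25 and 4.23 in the hippocampal libraries. The groups of Nkx6-1 did not overlap, and the difference was 4.64 (standard error 0.10, adjusted p = 1.08e-09, limma).

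On the lower side, Rnf43, a ubiquitin ligase that removes Wnt receptors from the cell surface, was at 4.95, 4.59 and 4.40 in the tdTomato, 3.89, 4.13 and 3.77 in the EYFP and 8.97, 8.91 and 8.97 in the hippocampal libraries. The hippocampal libraries of Rnf43 stood alone in their high values, and the difference was -4.66 (standard error 0.24, adjusted p = 7.63e-07, limma). Aldh1l1, a folate enzyme that is used as an astrocyte marker, was at 6.37 to 6.71 in the tdTomato, 7.15 to 7.19 in the EYFP and 10.06 to 10.53 in the hippocampal libraries, with a difference of -3.44 (standard error 0.21, adjusted p = 2.26e-06, limma). Otx1 was at 5.69 to 6.05 in the traced and 7.96 to 8.02 in the hippocampal libraries.

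The other leading genes lower in both traced lines had various functions. Vxn, which is expressed in developing neurons, was at 3.87 to 4.39 in the tdTomato, 4.83 to 5.05 in the EYFP and 8.79 to 8.95 in the hippocampal libraries. Dmrtb1 encodes a transcription factor of the doublesex-related family and differed by -3.58 (standard error 0.17). Slc30a10, a manganese exporter, differed by -3.80 (standard error 0.30) and Thy1, a glycoprotein of the neuronal surface, by -3.26 (standard error 0.18). For Lnx1, a ubiquitin ligase that binds Numb, and Adora2b, an adenosine receptor, the differences were -3.28 and -2.51. Akap12, a scaffold for protein kinases, differed by -2.01, with 7.71 to 8.24 in the traced and 9.84 to 10.50 in the hippocampal libraries. Pcdhga7, a clustered protocadherin, differed by -3.34, and 39.8% of its stretches of 75 bases occur in transcripts of other genes, so its value is less certain.

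**Figure D1:**
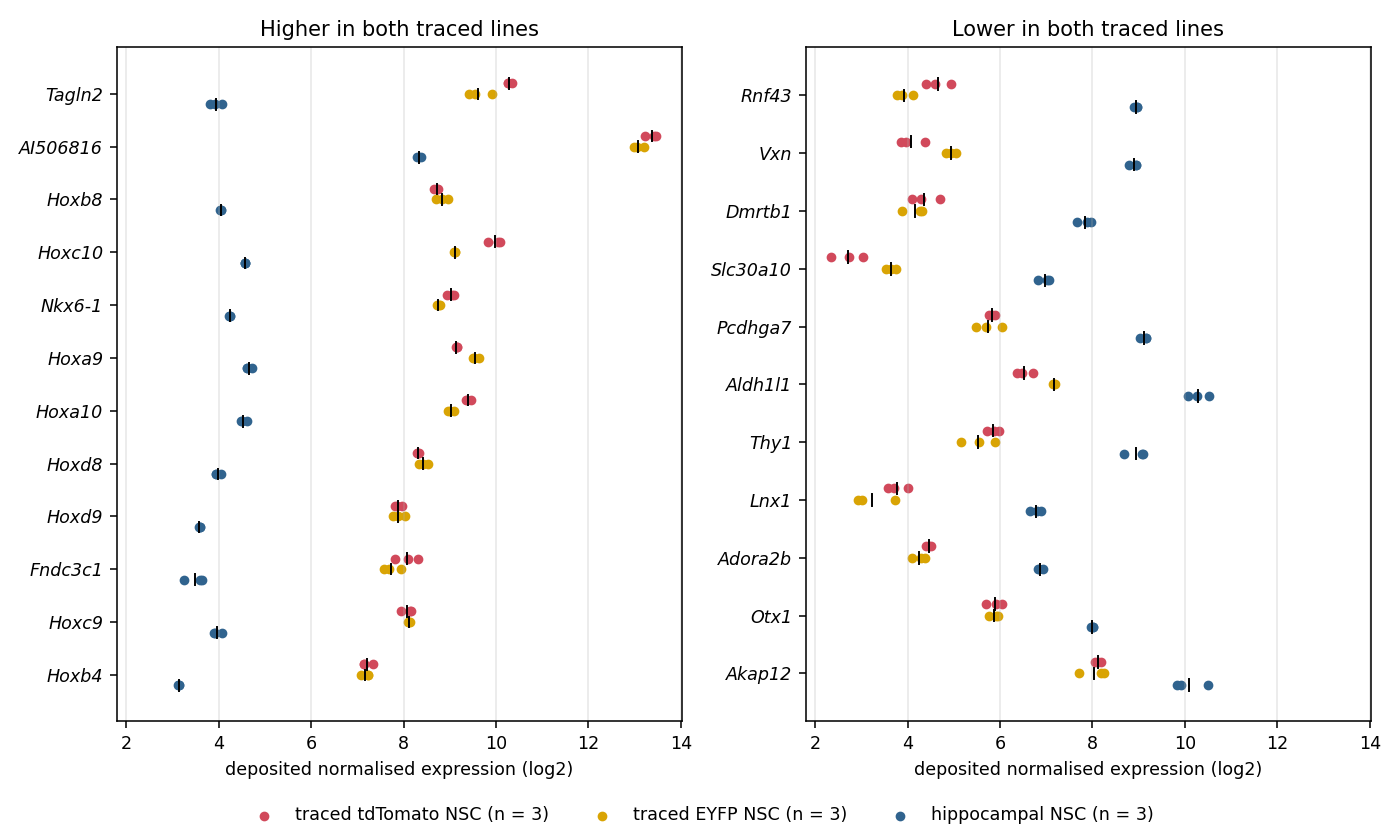
Deposited log2 expression of the 12 leading genes higher (left) and of 11 of the 12 lower (right) in both traced lines, with 1 point per library, 3 libraries per line, and a bar at the mean of each line. The genes were chosen so that the traced and hippocampal points do not overlap. Tagln2 (3.81 to 4.08 against 9.41 to 10.35) and Rnf43 (8.91 to 8.97 against 3.77 to 4.95) are the most widely parted of the genes shown on each side.

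Outside the Hox genes, the next genes higher in both traced lines were named after their values were seen. Gm53, a long non-coding RNA on chromosome 11 from 96251105 to 96264868 next to the Hoxb cluster, differed by 4.17 (standard error 0.16). Rab3b, a GTPase of secretory vesicles, was at 7.80 to 8.35 in the traced and 4.07 to 4.36 in the hippocampal libraries. Slc38a1, a glutamine carrier, was at 13.02 to 13.42 in the traced and 10.04 to 10.10 in the hippocampal libraries, a difference of 3.10 (standard error 0.08, adjusted p = 5.75e-09, limma). B3gnt5, which starts the lacto series of glycolipids, differed by 4.98 in the tdTomato and 3.65 in the EYFP line. Gas6, the ligand of the TAM receptor kinases, differed by 2.86 (standard error 0.12), Ifitm3, an antiviral membrane protein, by 2.64 (standard error 0.16) and Fgf14, an intracellular relative of the FGFs, by 3.55 (standard error 0.22).

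Hox genes differed in all 4 clusters. Of 32 Hox genes tested, 24 were higher in both traced lines, 2 were lower and 6 did not differ the same way from both. By cluster, 6 of 10 Hoxa, 8 of 9 Hoxb, 6 of 9 Hoxc and 4 of 4 Hoxd genes were higher, against 10.0% of all genes tested. Of the 24, 10 had a hippocampal mean under the filter on low values and were tested only because the traced lines were high, so these counts and medians describe the genes that passed the filter. Of the 7 Hoxd genes in the table, 4 passed it. The median difference was 1.38 for Hoxa, 4.02 for Hoxb, 3.85 for Hoxc and 3.44 for Hoxd genes, against 0.01 over all genes. The 2 lower genes were Hoxa3 and Hoxa4, from the part of the cluster that is used nearer to the head.

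Hoxb8 was at 8.74, 8.73 and 8.67 in the tdTomato, 8.71, 8.83 and 8.96 in the EYFP and 4.05, 4.05 and 4.03 in the hippocampal libraries. It differed by 4.73 (standard error 0.08), with an adjusted p of 5.17e-10 by limma. In Hoxc10 the values were 9.82, 10.09 and 10.05 in the tdTomato, 9.12, 9.09 and 9.12 in the EYFP and 4.58, 4.58 and 4.56 in the hippocampal libraries. The groups were far apart, and the tdTomato libraries of Hoxc10 lay above the EYFP libraries. Hoxa9 was at 9.15, 9.14 and 9.15 in the tdTomato, 9.53, 9.50 and 9.64 in the EYFP and 4.72, 4.62 and 4.61 in the hippocampal libraries, so here the EYFP line had the higher values. Hoxa10 differed by 4.67 (standard error 0.12), Hoxd8 by 4.38 (standard error 0.08), Hoxd9 by 4.30 (standard error 0.08), Hoxc9 by 4.14 (standard error 0.08) and Hoxb4 by 4.05 (standard error 0.09).

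In 21 of the 24 higher Hox genes the hippocampal mean was under 5 on the log2 scale, and there the SD of the 3 hippocampal libraries was at most 0.149. The hippocampal values of Nkx6-1, at 4.25, 4.25 and 4.23, were as close to each other. The Y-linked genes in the tdTomato line, which had the female pattern, were at 3.93 to 5.03 and thus at similar values. Whether such hippocampal values stand for low expression or for none was not tested. The hippocampal line did have Hox expression above this range in the Hoxa cluster. Hoxa5 was at 9.25, Hoxa7 at 8.08 and Hoxa3 at 8.73 in the hippocampal line on average. The traced tdTomato and EYFP lines were at 9.80 and 10.07 for Hoxa5 and at 9.67 and 10.27 for Hoxa7. For Hoxa3, which was lower in the traced lines, they were at 7.54 and 7.86, and for Hoxa4 at 6.15 and 6.17, against 7.50 in the hippocampal line.

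The Hox genes nearest the tail end separated the traced lines from each other, a pattern singled out after the values were seen. Hoxc11, Hoxc12 and Hoxc13 were at 7.71, 6.68 and 6.99 in the tdTomato line, at 1.87, 1.48 and 1.58 in the EYFP line and at 1.84, 1.43 and 1.53 in the hippocampal line. The long non-coding RNA Hotair, from the Hoxc cluster, was at 6.29, 1.44 and 1.50 in the same order of lines. Of 5 Hox antisense and cluster RNAs tested, Hoxb3os was higher in both traced lines, by 2.77 in the tdTomato and 3.36 in the EYFP line, and Hoxd3os1, which was on no list, was higher by 3.34 and 3.42. Hotairm1, at 7.65, 7.92 and 7.59, did not differ the same way from both.

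**Figure D2:**
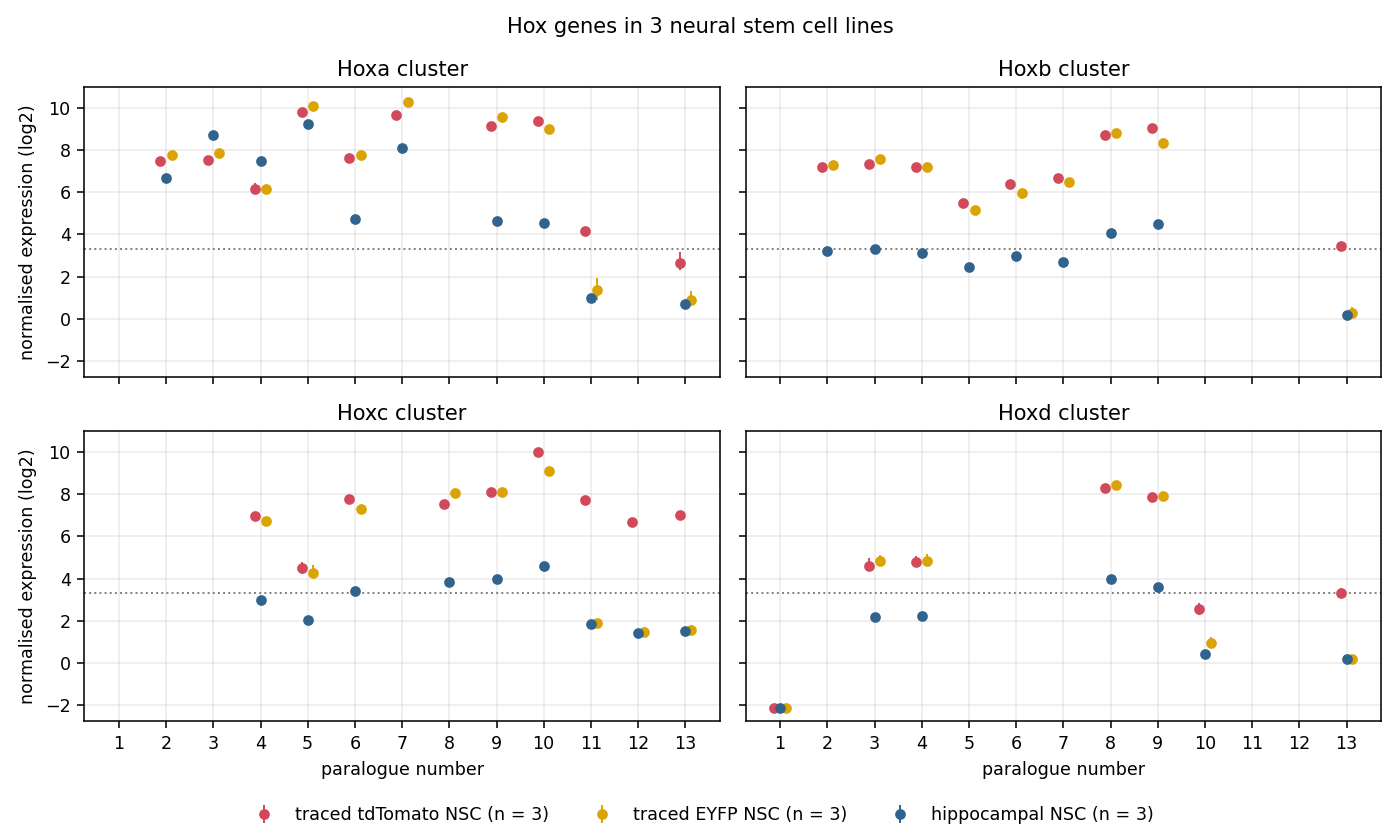
Mean deposited log2 expression of 35 Hox genes, with genes under the filter on low values included, by cluster (panels) and paralogue number (horizontal axis) in the 3 NSC lines, with bars from the lowest to the highest of 3 libraries and a dotted line at 3.32, the filter on low values. The traced lines lie above the hippocampal line for most paralogues from 5 to 10, Hoxa3 and Hoxa4 lie below it, and Hoxc11 to Hoxc13 are high in the tdTomato line alone.

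Of 27 transcription factors of the forebrain and midbrain tested, 11 were lower, 5 were higher and 11 did not differ the same way from both traced lines, against 7.88% of all genes lower and 10.0% higher, with a median difference of -0.32. Otx1, given above, was lower by 2.11 in the tdTomato and 2.12 in the EYFP line. Bcl11b, which specifies neurons that project to the spinal cord, was higher instead, at 7.86 to 7.97, 7.49 to 7.58 and 4.99 to 5.31 in the tdTomato, EYFP and hippocampal libraries. Zic1 was named after its values were seen, for the unequal size of its differences, which were -1.90 in the tdTomato and -5.10 in the EYFP line.

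Among 18 factors that pattern the spinal cord from back to belly, 5 were higher and 1 was lower, against 10.0% and 7.88% of all genes. Nkx6-1 had the largest difference. Pax2, a factor of inhibitory interneurons, was higher by 1.47 in the tdTomato and 1.32 in the EYFP line, and Nkx2-2, a factor of the ventral-most progenitors, by 1.42 and 0.43. The hippocampal mean of Pax2, at 2.90, lay under the filter on low values. Of the markers of NSCs and radial glia, 4 of 24 were higher and 5 lower, against the same shares. Prom1, which encodes CD133, a surface protein of ependymal and stem cells, was higher by 2.10 and 1.61. Its hippocampal mean of 3.205 lay under the filter on low values, so it could hardly be called lower. Nr2e1, the orphan receptor of adult forebrain stem cells, was lower by 1.53 and 1.78 in the tdTomato and EYFP line, and it stands on the list of forebrain factors too. Cspg4 was higher by 0.50 and 0.52 and Sox1 was lower by 0.48 and 0.59. The deposited values were also put back on a linear scale, as 2 to the power of the value, and summed over lists. Since their transform is not given, and whether it shrinks low values was not tested, these sums rank libraries on that scale and are not amounts of RNA. The sum of the NSC list was 188200 to 200000 in the tdTomato, 216500 to 229600 in the EYFP and 224100 to 230600 in the hippocampal libraries, so that of the tdTomato line lay below the others.

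Of 17 markers of astrocytes tested, 6 were lower, 1, Sox9, was higher and 10 did not differ the same way from both traced lines, against 7.88% of all genes lower and 10.0% higher. Their median difference was -0.23 over both traced lines and -0.05 in the EYFP line alone. Beside Aldh1l1, the bicarbonate carrier Slc4a4 was lower by 1.58 in the tdTomato and 0.72 in the EYFP line, the gap junction protein Gja1 by 0.70 and 0.75 and the glutamate carrier Slc1a2 by 1.36 and 0.63. Slc1a3, the gene of the Glast promoter that drives Cre in the hippocampal line, was lower by 0.89 and 0.43, and it is on the lists of astrocyte and of NSC markers. The sum of the 18 astrocyte markers in the table on the linear scale was 89090 to 109300 in the tdTomato, 128400 to 147000 in the EYFP and 160100 to 164900 in the hippocampal libraries. The 3 ranges did not overlap, and the part of more differentiated cells in these differences was not tested. In bulk libraries, fewer cells of a type and less RNA per cell cannot be told apart. Gfap was at 9.06 ± 0.09 (SD, n = 3), 9.30 ± 0.17 and 9.27 ± 0.06 in the tdTomato, EYFP and hippocampal line, and neither traced line passed the test against the hippocampal line.

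In the ependymal and motile cilium list, 6 of 17 were higher and 1 was lower, against 10.0% and 7.88% of all genes, and these shares hold for the other cell type lists too. In that list, Cfap43, Rsph9 and Cfap126, which are parts of motile cilia, were higher by 0.97, 0.84 and 0.71 in the tdTomato and 1.19, 0.99 and 1.13 in the EYFP line. The filter on low values was passed by 17 of the 34 genes of this list in the table, and its summed linear level was 11790 to 12340 in the tdTomato, 12200 to 12840 in the EYFP and 12630 to 13250 in the hippocampal libraries. In the oligodendrocyte lineage list, 4 of 11 were higher and 1 lower, with Bcas1 higher by 0.77 and 0.75. Markers of pericytes, fibroblasts and meninges summed to 5358 to 5761 in the tdTomato, 5085 to 5429 in the EYFP and 3693 to 4298 in the hippocampal libraries. This sum includes Cspg4, which is also on the NSC and oligodendrocyte lineage lists and was higher in both traced lines. The median difference of the list was 0.05. Of the 8 tested, 2 were higher and 1 lower, and Col3a1, a fibrillar collagen of fibroblasts, was higher by 4.22 in the tdTomato and 1.02 in the EYFP line. Its EYFP average of 2.95 and its hippocampal average of 1.93 lay under the filter on low values, which it passed through the tdTomato line, and its 6 against 3 test was not passed (adjusted p = 0.0762, limma). In the list of Schwann cell and neural crest markers, 2 of 7 were higher, Dhh and Tfap2a. The EYFP and hippocampal means of Dhh, at 3.04 and 1.40, lay under the filter on low values.

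Of 30 genes of actin bundling and contraction, 13 were higher and 2 lower in both traced lines, against 10.0% and 7.88% of all genes. Beside Tagln2, Anxa2, which joins membranes to actin, was higher by 2.42 in the tdTomato and 2.70 in the EYFP line. Acta2, the smooth muscle actin, was higher by 1.38 and 1.92 and the myosin light chain Myl9 by 1.27 and 1.75. Of 53 laminins, proteoglycans and matrix glycoproteins, 15 were higher and 4 lower, and 6 were higher by at least 1 in both lines. Ccn2, a secreted target of Hippo and TGF-beta signalling, was at 7.43 to 8.27 in the tdTomato, 7.20 to 7.68 in the EYFP and 5.25 to 6.00 in the hippocampal libraries. Fbn1, which encodes fibrillin, was higher by 1.64 and 1.78 and Fbln2, a fibulin, by 2.14 and 1.50. Vcan, which encodes versican, was at 13.07, 13.12 and 13.17 in the tdTomato, 11.77, 11.75 and 11.73 in the EYFP and 10.27, 10.08 and 10.01 in the hippocampal libraries, so the 3 lines stood apart from each other. The summed level of pericyte and fibroblast markers, given above, was higher in the traced lines too, but it includes the NSC marker Cspg4. The part of pericytes and fibroblasts was not tested.

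In the lists of collagens (7 higher and 3 lower of 26), matrix proteases and inhibitors (9 and 5 of 34), integrins (4 and 2 of 16) and axon guidance genes (7 and 9 of 59), members differed in both directions, where 10.0% of all genes were higher and 7.88% lower. Itga9, an integrin that binds tenascin, was higher by 2.85 in the tdTomato and 1.43 in the EYFP line. Plxna4, a semaphorin receptor, was higher by 1.52 and 1.34. The netrin receptor gene Unc5d was at 1.24, 2.19 and 4.99 in the tdTomato, EYFP and hippocampal line on average and thus lower in both. Both traced means of Unc5d lay under the filter on low values. Cdh11, a cadherin of mesenchyme and brain, was lower by 1.11 and 1.08, and was one of 2 of 10 classical cadherins that differed.

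Clustered protocadherins, surface proteins of which a cell uses a random selection, gave 12 lower and 5 higher of 49 without a pseudogene biotype, against 7.88% and 10.0% of all genes, with a median difference of -0.24. Pcdhb11 was lower by 1.93 in the tdTomato and 1.75 in the EYFP line. Pcdhgc5 was lower by 2.29 in the tdTomato and 1.52 in the EYFP line, and Pcdha7 was at 0.83, 0.79 and 3.66. Both traced means of Pcdha7 lay under the filter on low values. The members did not move as 1 group, since Pcdhgb4 was higher by 2.14 and 1.33.

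The signalling pathways are read against the 10.0% of all genes that were higher and the 7.88% that were lower in both traced lines. In the BMP and TGF-beta pathway, 11 of 41 genes were higher and 1 lower, with a median difference of 0.16. Among ligands, Bmp3, an atypical BMP, was at 7.30 to 7.75 in the tdTomato, 6.98 to 7.51 in the EYFP and 5.60 to 6.37 in the hippocampal libraries, and Inhba, the activin A subunit, was higher by 1.13 and 1.05. For Inhba the hippocampal mean was 3.135, under the filter on low values. Ltbp4, which stores latent TGF-beta in the matrix, was higher by 1.38 and 1.01, and Fstl1, a secreted BMP-binding protein, by 0.87 and 0.92. In the Wnt pathway, 9 of 45 were higher and 6 lower. The ligand Wnt4 was at 3.20 to 4.21 in the tdTomato, 3.46 to 4.40 in the EYFP and 6.25 to 6.50 in the hippocampal libraries. The secreted inhibitors went apart, with Sfrp2 lower by 1.21 and 1.43 and Wif1 higher by 0.99 and 1.60.

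In the EGF and FGF pathway, 8 of 37 were higher and 1, Tgfa, was lower, against the 10.0% and 7.88% of all genes that apply to the other pathways here too. The EGF receptor ligand Ereg was at 4.73, 6.13 and 2.59 in the tdTomato, EYFP and hippocampal line on average, and Fgf13 was higher by 1.61 and 1.39. For Ereg the hippocampal mean lay under the filter on low values. In the hedgehog pathway, 4 of 15 were higher and 2 lower. The ligand Dhh was at 5.55, 3.04 and 1.40 on average and thus passed the filter on low values through the tdTomato line alone. The coreceptor Cdon was higher by 1.06 and 0.83, and Gli2, an effector, was lower by 1.45 and 0.56. In the Notch pathway, 2 of 24 were higher and 1 lower, with the coactivator Maml3 higher by 1.37 and 1.03. Of the retinoic acid genes, 1 of 9 was higher, Rara, and 1 was lower, Rarb. In the insulin-like growth factor axis, 2 of 12 were higher and 1 lower, and Igf2bp3, an RNA-binding protein of growing tissue, was higher by 3.11 and 1.50.

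Of 45 potassium channels, 8 were lower and 2 higher in both traced lines, where 7.88% of all genes were lower and 10.0% higher, with Kcna2 lower by 1.58 in the tdTomato and 1.26 in the EYFP line. Of 30 glutamate and GABA receptors, 6 were lower and 1 higher, with the AMPA receptor subunit Gria2 lower by 1.78 and 2.29 and the NMDA receptor subunit Grin2b by 2.31 and 1.55. Carriers of amino acids and transmitters divided, with 7 higher and 6 lower of 28. The GABA carrier Slc6a11 was lower by 2.95 in the tdTomato and 1.56 in the EYFP line, while Slc38a1, described above, and Slc6a15, a carrier of neutral amino acids, were higher. Slc6a15 had a hippocampal mean of 2.06, under the filter on low values. Of 9 aquaporins and connexins, Gjc1 was higher by 2.09 and 1.80 and Gjc3 by 1.15 and 1.83, and Gja1 was lower.

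Of 36 interferon-stimulated genes, 8 were lower and 2, Ifitm3 and Irf1, were higher, against 7.88% and 10.0% of all genes. The other immune lists had members in both directions. The guanylate-binding proteins Gbp4 and Gbp9 were lower by 1.78 and 1.36 in the tdTomato and 2.34 and 1.64 in the EYFP line. Gbp4 had traced means of 3.17 and 2.61 in the tdTomato and EYFP line, under the filter on low values. Mx2, which the annotation lists as a polymorphic pseudogene, is not among the 36 and was higher by 1.37 and 2.29. Its hippocampal mean of 2.345 lay under that filter. In MHC class I presentation, 3 of 20 were higher and 4 lower. H2-T24 was higher by 2.43 and 2.34 and H2-Q7 by 2.53 and 1.16, while H2-K1 and H2-D1, the classical molecules, were lower by 0.74 and 0.53 in the tdTomato and 0.66 and 0.88 in the EYFP line. H2-Q7 had a hippocampal mean of 3.195, under the filter on low values. Of 14 complement genes, C2 was lower and Masp1 higher, and of 36 cytokines, chemokines and receptors, 4 were higher and 6 lower.

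Of 94 genes of S phase and G2/M, 8 were higher and 1 lower in both traced lines, where 10.0% of all genes were higher and 7.88% lower, and 0 differed by at least 1 in both lines. Cdk6 was at 8.45, 7.41 and 5.95 in the tdTomato, EYFP and hippocampal line on average. In the respiratory chain, 10 of 54 subunits were lower and 3 higher, with differences under 0.25 except for Ndufs5, which was higher by 0.99 in the tdTomato and 0.86 in the EYFP line. The 3 glycolysis genes that differed, of 30, were lower, among them Pdk4, the kinase that shuts pyruvate out of mitochondria, by 3.07 and 1.78. The same held for 3 of 34 genes of cholesterol and fatty acid synthesis, with Srebf1 lower by 1.22 and 0.74. Of one-carbon and serine enzymes, 4 of 23 were lower and 1 was higher, and Cbs, which makes cystathionine, was lower by 1.34 and 1.31. The lipid genes Lcat and Pla2g7 were lower by 2.21 and 3.32 in the tdTomato and 1.85 and 1.07 in the EYFP line. Of 37 genes of glutathione and detoxification, 4 were lower and 1 higher. Metallothioneins, at 5 tested, gave 0 by this rule and 0 by the 6 against 3 test of limma, with 1 at an unadjusted p under 0.05.

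Of 29 imprinted genes, 9 were higher and 1, Blcap, was lower, against 10.0% and 7.88% of all genes. Mest, a paternally expressed gene, was at 13.94, 14.01 and 14.09 in the tdTomato, 14.11, 14.28 and 14.35 in the EYFP and 12.65, 12.51 and 12.57 in the hippocampal libraries. The groups did not overlap, and the difference was 1.55 (standard error 0.09, adjusted p = 1.52e-06, limma). Grb10, an adaptor that dampens insulin signalling, was higher by 2.92 in the tdTomato and 2.07 in the EYFP line. Of 42 enzymes of DNA methylation and Polycomb, 3 were higher, among them Kdm6a, an X-linked demethylase, and 0 were lower, so the share of higher genes was not above that of all genes. Of Sox factors, 3 of 12 were lower and 1 was higher, and of 28 NFI and other gliogenic factors, Runx2 was the 1 that differed, higher by 1.67 and 1.66. Of 10 intermediate filaments, Lmna was higher by 0.59 and 0.43. Of 15 proneural and neuroblast genes, 2 were higher and 2 lower, and of 17 CDK inhibitors, D cyclins and their kinases, 1 was higher and 2 were lower.

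**Figure D3:**
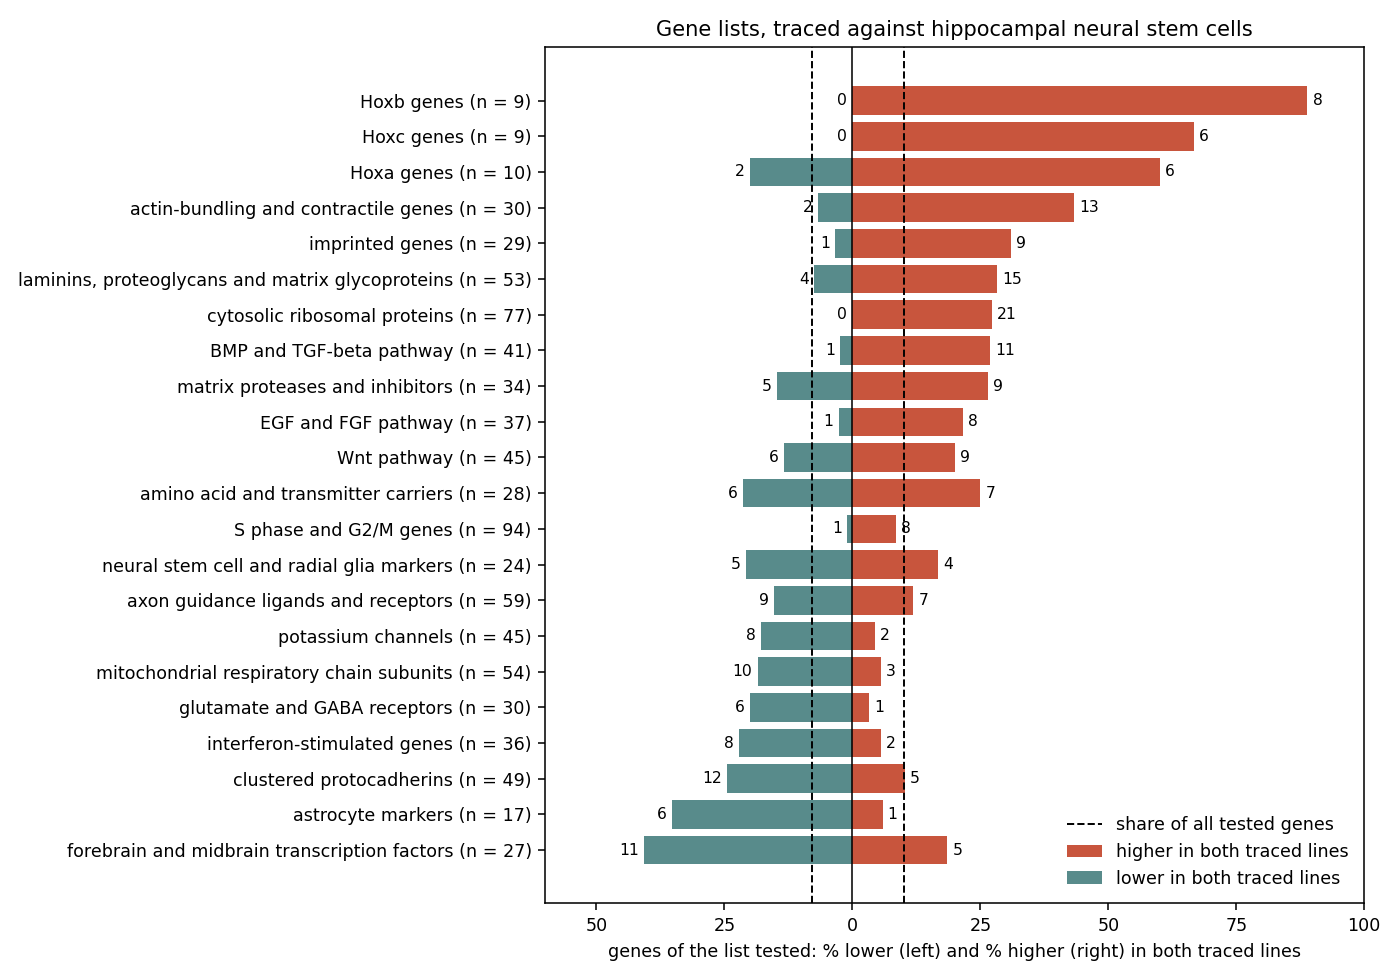
Percent of the tested genes of 22 lists, without the 4 Hoxd genes, all higher, that were lower (left) and higher (right) in both traced NSC lines, with the number of genes at each bar and dashed lines at the shares of all tested genes without a pseudogene biotype, 7.88% lower and 10.0% higher. Of the lists drawn, Hoxb genes (8 of 9) reach farthest to the right and forebrain and midbrain transcription factors (11 of 27) farthest to the left.

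Among 168 families of genes that share the letters of their symbol before the first digit and have at least 10 tested members, 109 had no member that differed by at least 1 in both lines, a size that 1.60% of all genes reached upwards and 1.14% downwards. The Hoxb family led, at 9 of 10 with the antisense RNA Hoxb3os, and Hoxa followed at 5 of 11. The shares were lower after these. Genes written S and a digit, such as the S100 genes, came next with 2 of 10, S100a10 higher and S100a1 lower, and then Pcdhga genes with 2 of 12, both lower. The families written H2, H60 and the like had 3 of 24, all higher, and Bcl genes had 2 of 16, Bcl11a and Bcl11b, both higher. Cyp genes had 2 of 16, Cyp4f15 and Cyp7b1, both lower, and Abhd genes had 2 of 19, in opposite directions.

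Cytosolic ribosomal proteins were the largest list with calls in 1 direction, at 21 of 77 higher and 0 lower, against 10.0% and 7.88% of all genes. The median difference was 0.10, and only 4 of the 21 differed by at least 0.5 in both lines. Rpl29 was higher by 2.13 in the tdTomato and 2.04 in the EYFP line, Rps13 by 0.80 and 0.67 and Rpl30 by 0.65 and 0.58. A related pseudogene that differed the same way from both lines, as described next, existed for 13 of the 77 genes and 8 of the 21. Among the 64 genes without one, 13 were higher. Gas5, a host gene of small nucleolar RNAs that was named after its values were seen, was higher by 1.26 and 1.44.

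Pseudogenes showed a pattern of their own. Of 646 tested, 78 (12.1%) were lower and 34 (5.26%) higher in both traced lines. At least 1 in both lines was reached by 62 that were lower and 7 that were higher, and at least 4 by 17 that were lower and 0 that were higher. Gm13841 and Gm8210, both related to Rpl29, had the same value in every library, at 2.36 to 2.87 in the traced and 10.38 to 10.44 in the hippocampal libraries. All of their stretches of 75 bases occur in other transcripts, and they are counted here as given by the authors. Gm3375, related to the proteasome gene Psmb5, was at 2.07 to 2.61 in the traced and 8.21 to 8.35 in the hippocampal libraries. Rps15a-ps8, which shares none of its stretches of 75 bases with other genes, was at 1.52 to 1.92 and 7.31 to 7.35. The leading higher pseudogenes were Mid1-ps1 on chromosome Y, at 5.13 to 5.79 in the tdTomato line, 6.16 to 6.60 in the EYFP line and 2.21 to 2.23 in the hippocampal line, followed by Nlrp5-ps, Gm6344 and Gm10651. Of the stretches of Mid1-ps1, 93.6% occur in other transcripts, and its relative is Mid1 on chromosome X, so its value cannot be assigned to the Y chromosome. Gm6344 was at 4.01, 1.31 and 4.51 in the tdTomato and 4.39, 4.09 and 2.86 in the EYFP libraries, and tdTomato replicate 2 overlapped the hippocampal libraries, at 1.31 to 1.34.

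The coding relatives of these pseudogenes went the other way in many cases, which was noticed after their values were seen. A protein-coding relative, with at least 20% of the pseudogene's stretches of 25 bases, was found for 97 of the 112 pseudogenes, and 94 of the relatives were tested. The 70 lower pseudogenes with a tested relative had 55 different relatives. Of these relatives, 23 (41.8%) were higher in both traced lines, 3 were lower and 29 did not differ the same way, where 10.0% of all genes were higher. Psmb5 was higher by 0.52 in the tdTomato and 0.40 in the EYFP line. Polr2h, a subunit of RNA polymerases and a relative of Gm7511, was higher by 1.25 and 1.19, while Gm7511 was lower by 4.16 and 3.85. Ndufs5 was higher as given above and its relative BC002163 was lower by 3.94 and 4.58. The relation was not general, since Gm6344, another relative of Rpl29, was higher in both lines, by 1.95 and 2.45, and 2 of the lower pseudogenes related to Cdh11, Gm6483 and Gm3365, had a relative that was lower too.

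The sequences of 4 pairs are shown because the values of both members rest on reads that have to be assigned between nearly identical letters. Each is a window of 75 bases of the coding sequence of the relative, aligned without gaps, at the place with the most differences, and letters that differ between the pair are in capitals. Sequences are from GENCODE M21 on GRCm38, 5′ to 3′ on the strand of each gene. The windows of the pseudogenes lie at chr5:115802085-115802159 on the minus strand for Gm13841, chr8:87048074-87048148 on the plus strand for Rps13-ps1, chr8:102865352-102865426 on the minus strand for Gm8730 and chr16:42955661-42955735 on the plus strand for BC002163.
Gm13841: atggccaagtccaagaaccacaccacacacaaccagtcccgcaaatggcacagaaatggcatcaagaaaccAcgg
Rpl29: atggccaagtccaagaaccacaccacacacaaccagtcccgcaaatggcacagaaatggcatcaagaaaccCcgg
Rps13-ps1: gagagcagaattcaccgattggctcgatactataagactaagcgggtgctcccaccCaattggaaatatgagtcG
Rps13: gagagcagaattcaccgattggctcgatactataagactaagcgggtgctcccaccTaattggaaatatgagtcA
Gm8730: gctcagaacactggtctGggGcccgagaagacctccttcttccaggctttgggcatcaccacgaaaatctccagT
Rplp0: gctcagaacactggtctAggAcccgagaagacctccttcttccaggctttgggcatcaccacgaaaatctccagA
BC002163: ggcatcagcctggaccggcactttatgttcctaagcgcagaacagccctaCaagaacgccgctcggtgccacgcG
Ndufs5: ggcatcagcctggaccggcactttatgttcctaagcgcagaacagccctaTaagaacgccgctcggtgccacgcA
Over the aligned coding sequence, Gm13841 differed from Rpl29 at 3 of 483 bases, Rps13-ps1 from Rps13 at 2 of 456, Gm8730 from Rplp0 at 12 of 954 and BC002163 from Ndufs5 at 2 of 319. A read with none of these positions could come from either member. Rps13-ps1 was lower by 5.40 in the tdTomato and 5.68 in the EYFP line, and Gm8730 by 5.51 and 5.28, while Rplp0 was higher by 0.44 and 0.45. Differences in genome sequence between the mice of the 3 lines were not tested.

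**Figure D4:**
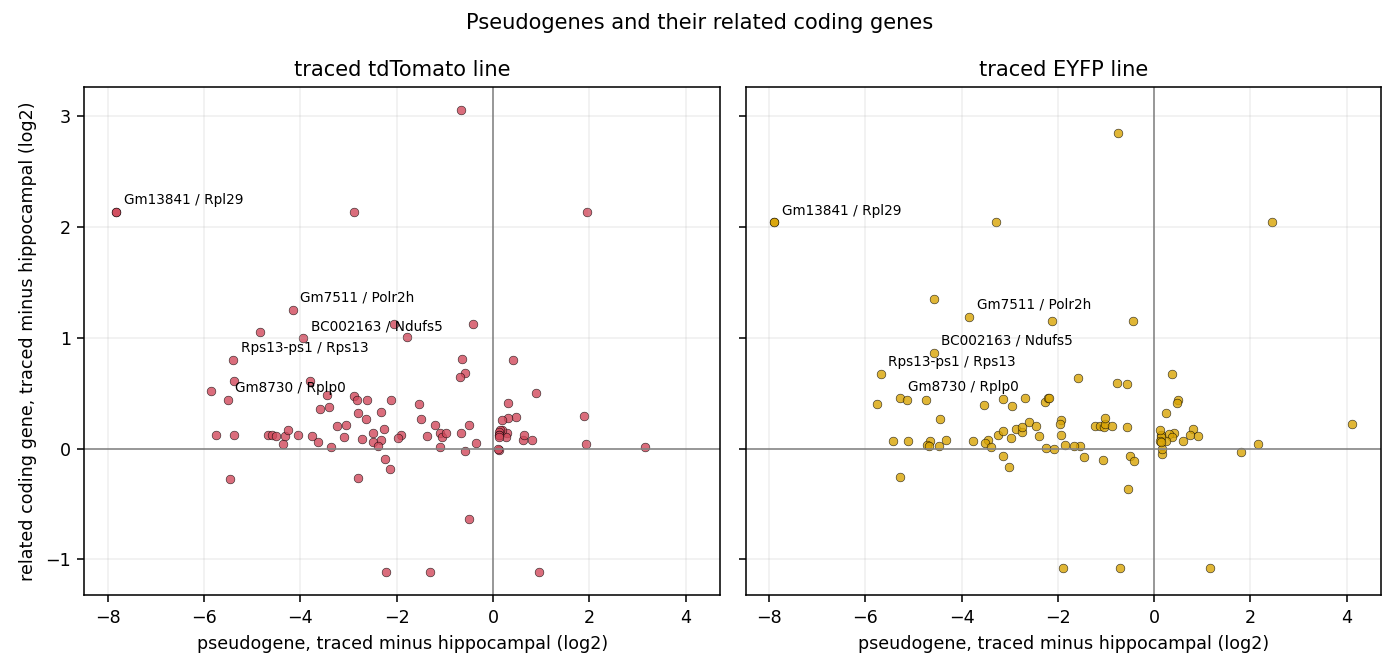
Difference from the hippocampal line of the 94 pseudogenes with a tested coding relative (horizontal axis, log2) and of that relative (vertical axis, log2), in the traced tdTomato (left) and EYFP line (right), with 1 point per pseudogene. Most points lie at the upper left, where the pseudogene is lower and the relative higher in the traced line, with Gm13841 and Rpl29 at -7.83 and 2.13 in the tdTomato line.

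Other genes with at least 50% of their stretches in transcripts of other genes were kept out of the leading genes and are uncertain for the same reason. There were 44 such genes among the 382. Eno1b was at 5.11 to 6.97 in the traced and 12.01 to 12.24 in the hippocampal libraries, and Gm7292, a non-coding RNA, differed by -5.04. The zinc finger genes Gm14295 and Gm14296, neighbours on chromosome 2, differed by 3.54 and 3.70.

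Many genes of chromosome 19 were higher in both traced lines, a pattern also found after the data were seen. Over 374 genes of that chromosome with a mean of at least 100 on the linear scale in both origins, the median difference was 0.23 in the tdTomato and 0.22 in the EYFP line, and 192 (51.3%) were higher in both lines while 5 were lower. On the other autosomes and chromosome X, the medians lay between -0.03 and 0.07 and the share of genes higher in both lines between 4.89% and 15%. In single NSC libraries the median of chromosome 19 genes lay 0.20 to 0.25 above the hippocampal mean in all 6 traced libraries, and within 0.01 of it in the hippocampal libraries. In astrocytes of the same lines it lay 0.18 to 0.20 above the hippocampal astrocytes in the tdTomato and 0.11 to 0.14 above in the EYFP libraries. Of the 2487 genes that differed the same way from both lines, 213 lay on chromosome 19, and 9 of the 382 with at least 1 did. The copy number of the chromosome in the 3 lines was not tested.

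**Figure D5:**
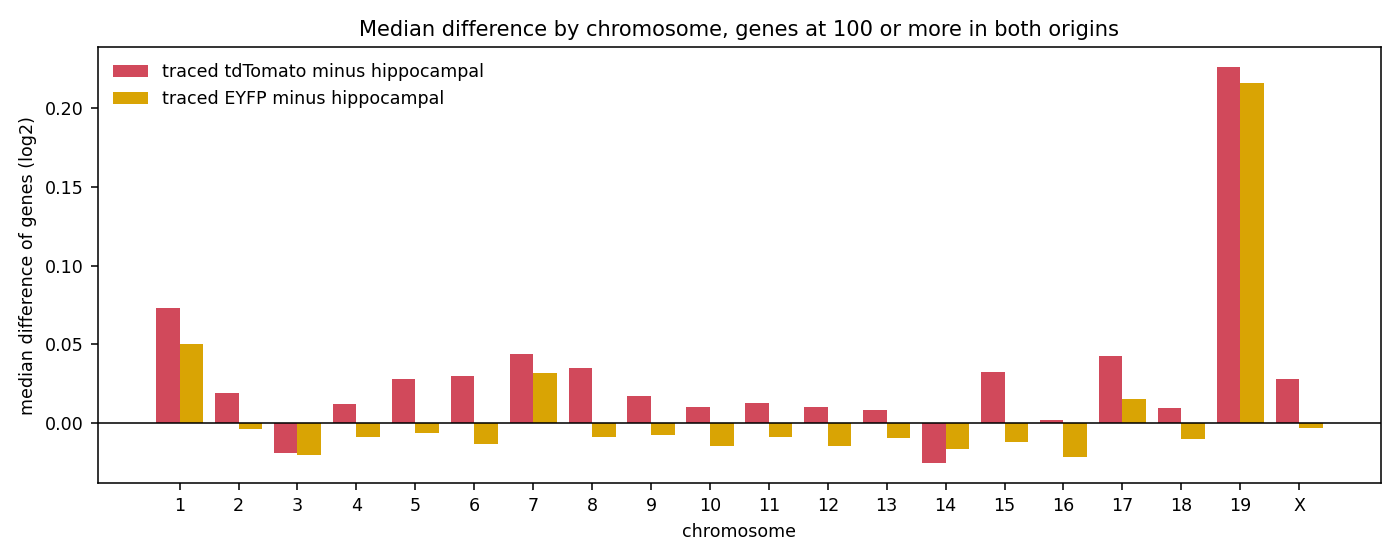
Median difference from the hippocampal line (log2, vertical axis) of genes at 100 or more on the linear scale in both origins, by chromosome, for the traced tdTomato and the traced EYFP line. Chromosome 19 stands at 0.23 and 0.22, and the other chromosomes lie between -0.03 and 0.07.

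The astrocytes differentiated from the same 3 lines with 20 ng/ml BMP4 were separate libraries that the choice of genes had not used. Of the 223 genes higher in both traced NSC lines by at least 1, 211 were tested in astrocytes, and 170 (80.6%) were higher in traced astrocytes too, 12 were lower and 29 did not pass the test, where 24.8% of all genes tested in both fates were higher. Of the 159 lower genes, 139 were tested, and 110 (79.1%) were lower too, 7 were higher and 22 did not pass, where 27.9% of all genes were lower. The lines are the same in both fates, so this is no second sample of the origins. Of the 24 leading genes, 23 passed the test in the same direction. Adora2b was the exception, at 4.96 in traced and 5.28 in hippocampal astrocytes on average (adjusted p = 0.368, limma).

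The size of the difference often changed with the fate. The interaction of fate and origin passed the test for 16 of the 24 leading genes, where 46.2% of all genes did. Tagln2 differed by 6.01 in NSCs and 2.89 in astrocytes, and Fndc3c1 by 4.41 and 1.72. Hoxc9 differed by 4.14 in NSCs and 5.10 in astrocytes. For Hoxb8, Hoxc10, Hoxd9 and Hoxb4, the interaction did not pass the test, with changes in the difference of -0.07, -0.01, 0.03 and -0.06.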

How the data were processed

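RNA was sequenced from 18 cultures, and the 9 NSC libraries, with 3 replicates per line, were used here, with the 9 astrocyte libraries as a further comparison. The authors estimated gene counts with RSEM and STAR on GRCm38 and normalised them with DESeq2, per their methods, and the submitters' processing notes list RSEM 1.3.0, STAR 2.5.2, DESeq2 1.18.1, Trimmomatic 0.36 and R 3.4.3. The deposited table holds log2 values relative to library size, 29.4% of them negative, and the transform is not given in the sources used here. Read counts could not be recovered, and the depth of single libraries is unknown, so no counting error is given. All columns were matched to a sample.

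Lines were compared with limma (3.58.1, R 4.3.3) with a variance trend on the deposited values and Benjamini-Hochberg adjustment at 0.05. The filter on low values was 3.32 in at least 3 of the libraries compared. Traced against hippocampal NSCs was tested as 6 against 3 libraries, and each line in a model of 3 lines. The leading genes were the 12 higher and 12 lower with the largest smaller line difference among genes without a pseudogene biotype that passed all 3 tests, did not overlap, reached a mean of 6.64 on the log2 scale in either origin and shared under 50% of their stretches of 75 bases. Up to 4 genes per list were named by the same measure, out of 57 lists, with 8 families and 4 pseudogenes in each direction. Some genes that met these rules are counted but not reported here. The members and lists were chosen with earlier results of these data known. The fits were tested on simulated data with known changes. The rule on both lines also called some genes without an added change once gaps between the lines were added, and none without such gaps. The gaps were drawn apart for each traced line, so both could be shifted the same way from the hippocampal line. Annotation, transcripts and biotypes came from GENCODE M21 and promoters from RefSeq (Python 3.11.15). Alternatives were other filters, pseudocounts, centring, quantile normalisation, dropping the variance trend, leaving out each library, a replicate block, and fits with other sets of samples.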

Additional observations from a re-analysis of the deposited data

Results flagged for a closer look

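In 11 of the 213 named genes, 1 of the 6 traced NSC libraries stood apart, by a gap to its nearest neighbour of more than 0.625 of the whole range (Dixon's limit for 6 samples). For samples of 1 population, chance gives this in about 1 in 20 groups. The 6 libraries come from both traced lines, which differed from each other in many genes, so that rate need not hold here. Values are given for 10 of the 11 genes. The gap was 0.703 of the range for Hoxc9, 0.659 for Akap12, 0.771 for Gm3375, 0.924 for Gm32802 and for Gm32717, which have the same values, 0.854 for Gm3383, 0.724 for Hoxb3os, 0.66 for Col12a1, 0.642 for H2-T24 and 0.662 for Hjurp. The library apart was not the same in all: it was tdTomato replicate 1 for Hoxc9 and Gm3375, tdTomato replicate 2 for Hoxb3os, tdTomato replicate 3 for Gm32802, Gm32717 and Col12a1, EYFP replicate 2 for Akap12 and Gm3383, and EYFP replicate 3 for H2-T24 and Hjurp.

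The traced lines differed from each other (limma, adjusted p under 0.05) in 89 of the 213 named genes, where 35.8% of all genes tested did. EYFP minus tdTomato on the log2 scale was -0.667 for Tagln2, -0.289 for AI506816, -0.879 for Hoxc10, -0.276 for Nkx6-1, 0.409 for Hoxa9 and -0.378 for Hoxa10 among the leading higher genes. Among the leading lower genes it was -0.719 for Rnf43, 0.874 for Vxn, 0.928 for Slc30a10 and 0.649 for Aldh1l1. Of the other named genes with a difference of at least 1, the EYFP line was lower by -1.33 for B3gnt5, -1.84 for Igsf21, -1.07 for Nlrp5-ps, -2.5 for Dhh, -1.44 for Dusp4, -1.61 for Igf2bp3 and -1.35 for Ugt8a. The matrix and surface genes Col3a1 (-3.2), Vcan (-1.38), Adamts19 (-1.07), Itga9 (-1.41) and H2-Q7 (-1.37) were lower in the EYFP line too, as were Cdk6 (-1.03), Slc6a15 (-1.22) and Xist (-7.74). The EYFP line was higher for Ereg (1.4), Col4a6 (1.31), Pdk4 (1.29), Gpx7 (1.91), Pla2g7 (2.25) and Slc6a11 (1.39). Of the genes that were named outside the rule for named genes, the EYFP line was lower for Hoxc11 (-5.84), Hoxc12 (-5.2), Hoxc13 (-5.42), Hotair (-4.85) and Zic1 (-3.2), and higher for the Y-linked genes Ddx3y (5.43), Eif2s3y (4.98), Kdm5d (5.29) and Uty (4.56).

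The traced minus hippocampal difference was not the same in astrocytes and NSCs (interaction of fate and origin, limma) for 137 of the 213 named genes, where it passed the test for 46.2% of all genes. Astrocyte minus NSC difference was -3.13 for Tagln2, -1.82 for AI506816 and -2.69 for Fndc3c1, so these were less far apart in astrocytes. For Nkx6-1 it was 0.268, for Hoxa9 0.534, for Hoxa10 0.41, for Hoxd8 0.411 and for Hoxc9 0.962, so these were farther apart. Among the lower genes it was -1.36 for Dmrtb1 and -0.524 for Otx1, which were farther apart in astrocytes, and 1.8 for Vxn, 0.901 for Slc30a10, 1.65 for Thy1, 0.912 for Lnx1 and 2.19 for Adora2b, which were less far apart.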

How the results depend on the processing

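The direction of no named gene reversed. Over 3952 alternatives for 213 named genes, 3776 kept the call of the 6 against 3 test, 155 lost it and 21 gained it, and all 453 alternatives of the 24 leading genes kept it. Of the 2599 genes that differed the same way from both lines, 1957 to 2595 also did so under each other filter, pseudocount, scaling, design and choice of libraries. The settings that required a difference of at least 1 or left out genes are given by their counts only. The count of the 6 against 3 test, 2823 genes, rose to 5208 when the mean of both traced lines was tested in the model of 3 lines and to 4865 in a model of all 18 libraries. Leaving out 1 library gave 1656 to 2887 genes, with 1718 without hippocampal replicate 1, 1718 without replicate 2 and 1656 without replicate 3. Leaving out 1 library gave 2032 to 2437 genes for those that differed the same way, 4829 to 6402 for the tdTomato line, 3195 to 4337 for the EYFP line, 3563 to 5496 for EYFP against tdTomato and 6363 to 7817 for astrocytes. With a difference of at least 1 required too, the counts were 584 for the 6 against 3 test, 902 for the tdTomato line, 661 for the EYFP line, 451 for the same way from both and 439 for EYFP against tdTomato. Median centring gave 1188 higher and 1415 lower genes, 45.6% higher against 54.8% as deposited. Chosen after seeing the data, leaving out chromosome 19 gave 2385 genes that differed the same way, leaving out genes with shared stretches gave 2460, and leaving out ribosomal proteins with a related pseudogene gave 13 higher in place of 21.

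With a replicate block, 2859 genes differed the same way from both lines, 2555 of them among the 2599, and the 6 against 3 test gave 2266. Deviations of same-numbered libraries correlated at 0.0144 to 0.222 in 9 pairs, not above 0.1 in every pair, so the numbers were not taken to pair the samples, although 9 of 9 libraries correlated best with their own number. The methods give passages 10, 11 and 12 for the 3 replicates, and which number is which passage is not given in the sources used here, so a shared passage per number was not shown.

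Each origin was represented by few lines, and the 3 replicates are cultures of 1 line. The depth behind each value is unknown, so low genes cannot be weighed by their counts.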
